A study of Mus musculus with 2 samples.

Results

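The GIMAP genes (GTPases of the immunity-associated protein family) were measured in CD8+CD122+ T cells and set against CD8+CD122- T cells, both sorted from C57BL/6 mouse spleen. Members were the non-control probes that either scanner file names as Gimap1, Gimap3 to Gimap9 or an older Ian or Imap name. These were 11 of 41174 probes, covering 7 of the 8 genes. Gimap8 had no probe by this rule and was not analysed here. All 11 were named as GIMAP genes on array 2, and 4 of them, as Ian3, Ian4, Ian6 and Imap38, on array 1, whose annotation is older. Messenger RNA of both populations was amplified and hybridised together on each of 2 Agilent arrays read in 2 colours. On array 1 the CD8+CD122+ sample was labelled with Cy5 and the CD8+CD122- sample with Cy3. On array 2, which the labels call a second trial, the dyes were exchanged. No genotype, treatment, age or sex of the mice is given in the labels, nor whether animals were pooled or whether the second trial used new mice. The spread between the 2 arrays may therefore be technical, and their number limits the precision.

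GIMAP proteins share a GTP-binding domain and are found mostly in lymphocytes. Several sit on the membranes of intracellular organelles, and they are known for setting how long T cells survive. Loss of Gimap5 leads to T cell lymphopenia in rats and mice, and mice without Gimap1 in lymphocytes lack most mature T and B cells. Proteins of the family have been reported to bind members of the BCL-2 family, which decide between cell survival and death. In the RefSeq annotation of GRCm38.p6 the mouse genes lie next to each other on chromosome 6 in the order Gimap8, Gimap9, Gimap4, Gimap6, Gimap7, Gimap1, Gimap5 and Gimap3. Gimap6 and Gimap3 run on the minus strand and the others on the plus strand.

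The RefSeq sequences of the 250 bases before the start of 3 of these genes are shown, because their probes carried the contrasts described below. Gimap6 was the member with a RefSeq accession that was furthest higher in CD8+CD122+ cells, Gimap1 was furthest lower, and the 2 probes of Gimap5 parted. Capitals mark the core GGAAG of ETS factors, or CTTCC on the other strand.
Gimap6, chr6:48708245-48708494, minus strand: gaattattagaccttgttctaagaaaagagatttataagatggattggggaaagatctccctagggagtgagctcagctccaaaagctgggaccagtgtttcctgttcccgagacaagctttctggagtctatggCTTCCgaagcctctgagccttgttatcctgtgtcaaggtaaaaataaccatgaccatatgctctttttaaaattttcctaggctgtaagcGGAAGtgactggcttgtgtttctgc
Gimap1, chr6:48738797-48739046, plus strand: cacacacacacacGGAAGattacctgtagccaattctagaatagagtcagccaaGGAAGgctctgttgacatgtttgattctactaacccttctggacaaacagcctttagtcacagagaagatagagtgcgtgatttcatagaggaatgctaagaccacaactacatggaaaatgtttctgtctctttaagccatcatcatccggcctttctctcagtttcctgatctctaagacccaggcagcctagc
Gimap5, chr6:48745947-48746196, plus strand: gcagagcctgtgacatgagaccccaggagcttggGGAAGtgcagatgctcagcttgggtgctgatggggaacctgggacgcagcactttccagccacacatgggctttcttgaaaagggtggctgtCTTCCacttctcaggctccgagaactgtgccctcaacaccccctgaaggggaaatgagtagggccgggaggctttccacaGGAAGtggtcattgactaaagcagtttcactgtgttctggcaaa
All coordinates are of GRCm38.p6. The core stood in 8 of the 9 windows held for the 8 GIMAP genes (Gimap8 has 2 windows), and in 64.1% of all 32851 windows of that length. The RUNX core TGTGGT (or ACCACA) was in the windows of Gimap1, Gimap4 and Gimap7, 3 of 9, against 14% of all windows. The KLF core CACCC (or GGGTG) was in 6 of 9 windows against 52%, namely those of Gimap3, Gimap4, Gimap5, Gimap8 and Gimap9. The 2 windows of Gimap8 overlap and share a KLF match, so both are counted. Both strands were searched, matches of the RUNX and KLF cores can overlap each other, and a match describes these letters only.

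No GIMAP probe passed the test across all probes. limma, fitted to 30794 probes that were well above background, called 0 of the 11 GIMAP probes at an adjusted p under 0.05. It called 0% of all probes, whose smallest adjusted p was 0.146, and 1884 of all probes (6.12%) had an unadjusted p under 0.05, where 1 of the GIMAP probes did. limma with an intensity trend or robust limma also called 0 probes, with 1919 and 1776 at an unadjusted p under 0.05. A change of at least 2-fold in one direction on both arrays was found in 0 GIMAP probes, against 0.253% of all probes higher and 0.0812% lower. Il2rb, the gene of the sorting marker CD122, had log2 ratios of 2.60 on array 1 and 2.34 on array 2 and an adjusted limma p of 0.312 over genes. Log2 ratios have CD8+CD122+ on top, were taken after loess within the array, and are shrunk towards 0 for dim probes by an offset of 50. All 11 probes were well above background in all of their 4 measurements, and none was saturated or marked as an outlier spot.

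Signs among the members were mixed. Of the 11 probes 3 were higher on both arrays in CD8+CD122+ cells (Gimap9, Gimap4 and Gimap6), against 27.8% of all probes. Another 4 were lower on both (Gimap1, 1 of 2 for Gimap5 and both of the overlapping probes for Gimap3), against 25.6%, and 4 had opposite signs, against 46.6%. Several of these signs rest on small values. The scanner software's own ratio was smaller than its error on array 1 for Gimap9, both Gimap3 probes and the lower Gimap5 probe. On array 2 it was so for Gimap4. The median over the 11 probes was -0.0050, beside 0.0033 over all probes. It was -0.21 over the 8 probes with a RefSeq accession, a choice made after seeing the data. These directions on single arrays depend on the scaling: with median centring in place of loess, 0 probes were lower on both arrays, and the 3 named as higher were each negative on array 2. The 2 higher on both arrays in that setting were the second Gimap5 probe (A_52_P102931) and a doubtful Gimap4 probe (A_52_P665979), which have opposite signs after loess. The mean of the swapped arrays kept its sign for all 11.

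**Figure D1:**
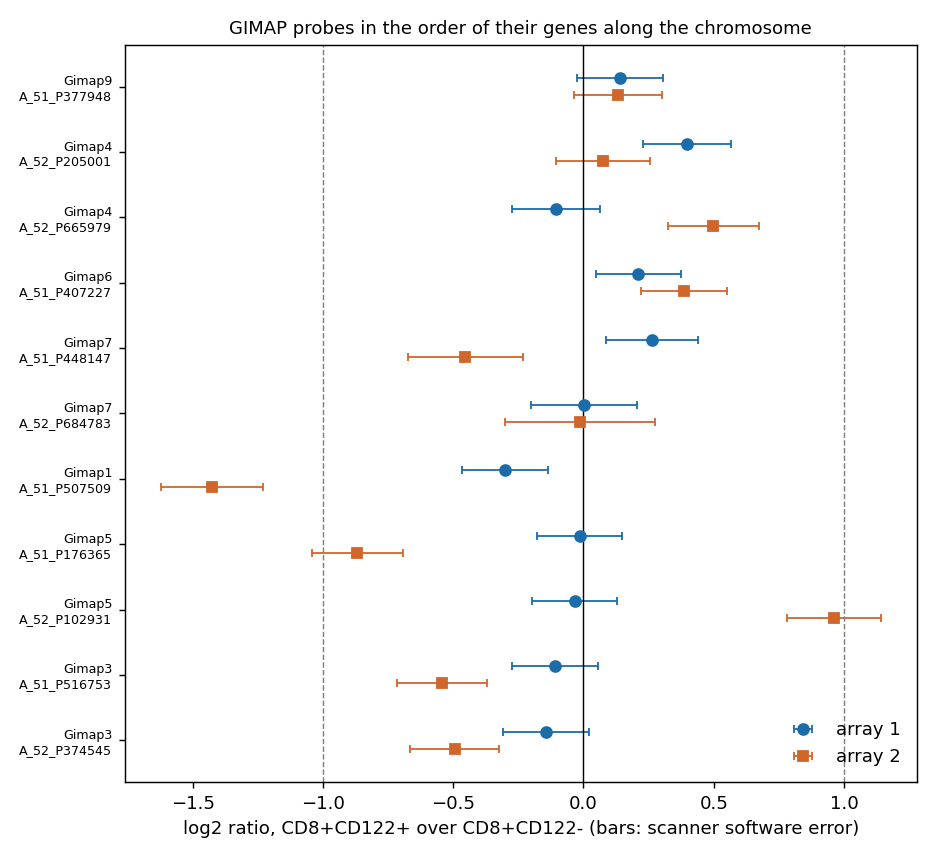
Log2 ratio of CD8+CD122+ over CD8+CD122- (x axis) for each of the 11 GIMAP probes (rows, in the order of their genes along the chromosome) on array 1 (circles) and array 2 (squares). Bars are the error that the scanner software gives for its own ratio, turned to the log2 scale, and dashed lines mark 2-fold. The Gimap1 point of array 2, at -1.43, is the only one beyond 2-fold, and the 2 Gimap5 probes lie at -0.87 and 0.96 on array 2.

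Gimap1, which mature lymphocytes need, was the furthest lower member. Its loess-normalised signals, which include the offset and are not scaled between arrays, were 1335 on array 1 and 839.6 on array 2 in CD8+CD122+ cells, against 1645 and 2256 in CD8+CD122- cells. CD8+CD122+ cells were lower on both arrays, and the values of the 2 populations did not overlap. Its log2 ratio was -0.30 on array 1 and -1.43 on array 2, with a mean of -0.86 ± 0.80 (SD, n = 2 arrays; 1.82-fold lower; adjusted limma p 0.842). It was 2.69-fold lower on array 2 and 1.23-fold lower on array 1, where median centring gave 0.10. On array 2 only 0.188% of all probes had a lower ratio, and on array 1 4.06% did. The scanner software's own ratios were -0.31 and -1.47 on the log2 scale, with errors of 0.16 and 0.20. These errors were smaller than the 1.12 by which the arrays differed after loess. In sorted bulk RNA, fewer cells with a transcript and less of it per cell cannot be told apart.

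Gimap3, a mitochondrial relative of Gimap5, had 2 probes whose positions in the scanner file are 10 bases apart, so that they share most of their target and are not independent. The first (A_51_P516753) had signals of 409 and 468 in CD8+CD122+ cells, against 441 and 683 in CD8+CD122- cells. CD8+CD122+ cells were lower on both arrays, although the 2 populations overlapped across arrays. Its log2 ratios were -0.11 and -0.54 (mean -0.33 ± 0.31, SD, n = 2 arrays; adjusted limma p 0.854). The second (A_52_P374545) had 459.5 and 442 in CD8+CD122+ cells, against 508 and 622 in CD8+CD122- cells, without overlap. Its log2 ratios were -0.14 and -0.49 (mean -0.32 ± 0.25; adjusted limma p 0.841). On either array the 2 probes were within 0.049 of each other on the log2 scale, and with median centring both were above 0 on array 1, at 0.17 and 0.15. The scanner software's own log2 ratios on array 1 were -0.115 and -0.156, smaller in size than their errors of 0.165 and 0.164.

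Gimap5, the member whose loss causes lymphopenia, gave contrary values on its 2 probes. The probe with a RefSeq accession (A_51_P176365) had signals of 1294 and 1020.2 in CD8+CD122+ cells, against 1308 and 1861 in CD8+CD122- cells. The populations did not overlap, but on array 1 they were nearly equal. Its log2 ratio was -0.015 on array 1 and -0.87 on array 2 (mean -0.44 ± 0.60, SD, n = 2 arrays; adjusted limma p 0.885). On array 1 the scanner software's own log2 ratio was -0.013, with an error of 0.16. The other probe (A_52_P102931) is called an unknown EST in the array 1 file, and the array 2 file describes it as a neonatal lung cDNA similar to an immunity-associated nucleotide gene. It had 1487 and 2582 in CD8+CD122+ cells, against 1522 and 1326 in CD8+CD122- cells. Here CD8+CD122+ cells were higher on array 2 and not on array 1, with log2 ratios of -0.034 and 0.96 (mean 0.46 ± 0.70; adjusted limma p 0.886). Median centring gave 0.37 and 0.53 on this probe, and 0.38 and -1.29 on the first.

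On array 1 the 2 Gimap5 probes were 0.019 apart on the log2 scale, closer than in 92.1% of 6189 genes with several kept probes. On array 2 they were 1.83 apart, a gap reached by 28 of the 6189 genes (0.452%). The median gap over all 6189 genes was 0.18. A gap is the range over all kept probes of a gene, 2 or more. The scanner file places the probes 6111 bases apart on chromosome 6. Which transcripts the second probe detects was not tested, and the probes' own sequences were not used here.

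**Figure D2:**
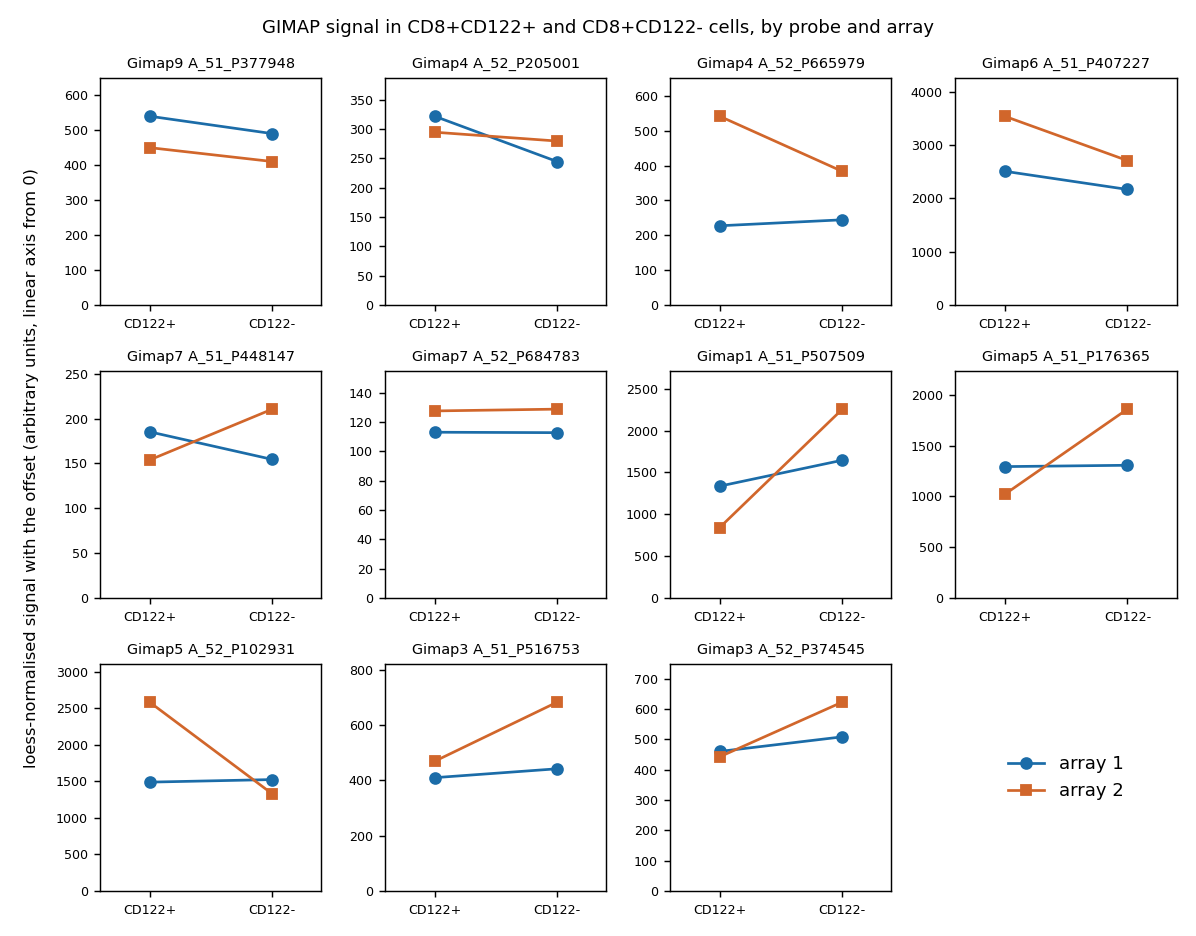
Loess-normalised signal with the offset (y axis, arbitrary units, from 0) of each GIMAP probe in CD8+CD122+ (left) and CD8+CD122- cells (right), with circles for array 1 and squares for array 2. Lines join the 2 populations of an array: both lines go up towards CD8+CD122- for Gimap1 (1335 to the left and 1645 to the right on array 1, 839.6 and 2256 on array 2), while the array 2 line of the second Gimap5 probe goes down and its array 1 line is nearly level.

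Gimap6, which in human cells binds the autophagy protein GABARAPL2, had higher values in CD8+CD122+ cells on each array. Its signals were 2510.1 and 3543 in CD8+CD122+ cells, against 2169 and 2711 in CD8+CD122- cells. The values of the populations overlapped across arrays, though not within an array. The log2 ratios were 0.21 and 0.39 (mean 0.30 ± 0.12, SD, n = 2 arrays; 1.23-fold higher; unadjusted limma p 0.033 and adjusted 0.778). It was the 1 GIMAP probe with an unadjusted limma p under 0.05, and with median centring its ratio on array 2 was -0.065.

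Gimap9 had signals of 539 and 449.7 in CD8+CD122+ cells, against 489.7 and 409.9 in CD8+CD122- cells. Its log2 ratios on the arrays, 0.14 and 0.13, were the closest pair among the members with a RefSeq accession, with a mean of 0.14 ± 0.0045 (SD, n = 2 arrays; adjusted limma p 0.855), and median centring gave 0.44 and -0.20. The scanner software's own ratios were 0.160 and 0.183 on the log2 scale, beside its errors of 0.164 and 0.170. Its ratio was thus smaller than its error on array 1 and larger on array 2.

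Gimap4, known in mice for hastening the death of T cells, had signals of 322 and 295 in CD8+CD122+ cells, against 244 and 279 in CD8+CD122- cells, on the probe with a RefSeq accession (A_52_P205001). Both arrays gave higher values in CD8+CD122+ cells, without overlap. The log2 ratios were 0.40 and 0.076 (mean 0.24 ± 0.23, SD, n = 2 arrays; adjusted limma p 0.867), and the second became -0.20 with median centring. On array 2 the scanner software's own log2 ratio was 0.096, smaller than its error of 0.18. A further probe (A_52_P665979) bears the name Gimap4 on array 2, but not on array 1, and the scanner file places it on chromosome 1. RefSeq puts Gimap4 on chromosome 6, so the placing of this probe goes against its label. It had 227 and 541 in CD8+CD122+ cells, against 244 and 383 in CD8+CD122- cells, and log2 ratios of -0.11 and 0.50. Without it, 10 GIMAP probes remain, with the same 3 higher and 4 lower on both arrays.

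The 2 Gimap7 probes, the dimmest of the members, had opposite signs on the arrays. The probe with a RefSeq accession (A_51_P448147) had signals of 185 and 154 in CD8+CD122+ cells, against 154 and 210.5 in CD8+CD122- cells. Its log2 ratios were 0.26 and -0.45 (mean -0.095 ± 0.51, SD, n = 2 arrays; adjusted limma p 0.962), and 0.39 and -0.61 with an offset of 0. The other probe (A_52_P684783), an EST 5432 bases away in the scanner file, had 113 and 128 in CD8+CD122+ cells, against 113 and 129 in CD8+CD122- cells. Its log2 ratios were 0.0039 and -0.014, too close to 0 for their signs to carry weight. The scanner software's own log2 ratios for it were -0.0043 and -0.027, with errors of 0.20 and 0.29.

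Across the 11 GIMAP probes 4 had signals of the populations that did not overlap between the arrays. Of these, Gimap4 (A_52_P205001) was above, where 5.14% of all probes were, and Gimap1, Gimap5 (A_51_P176365) and Gimap3 (A_52_P374545) were below, where 7.03% were.

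Along the chromosome the signs fell into 2 stretches among the probes with a RefSeq accession. Gimap9, Gimap4 and Gimap6, consecutive genes, had log2 ratios between 0.14 and 0.40 on array 1 and between 0.076 and 0.39 on array 2. Gimap1, Gimap5 and Gimap3, consecutive at the other end, had ratios between -0.30 and -0.015 on array 1 and between -1.43 and -0.49 on array 2. Gimap7 lies between them and was positive on array 1 and negative on array 2. The stretches were noticed in these values and carry no test. With median centring the first stretch lay between 0.44 and 0.66 and the second between 0.10 and 0.38 on array 1, and they lay between -0.20 and -0.065 and between -1.85 and -0.85 on array 2. The signs thus flipped with that scaling, although the first stretch lay above the second on both arrays there too. The second Gimap5 probe does not follow the pattern, nor does the Gimap4 probe placed on chromosome 1, at -0.11 on array 1. Neither has a RefSeq accession, and the choice of probes with one was made after seeing the data.

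**Figure D3:**
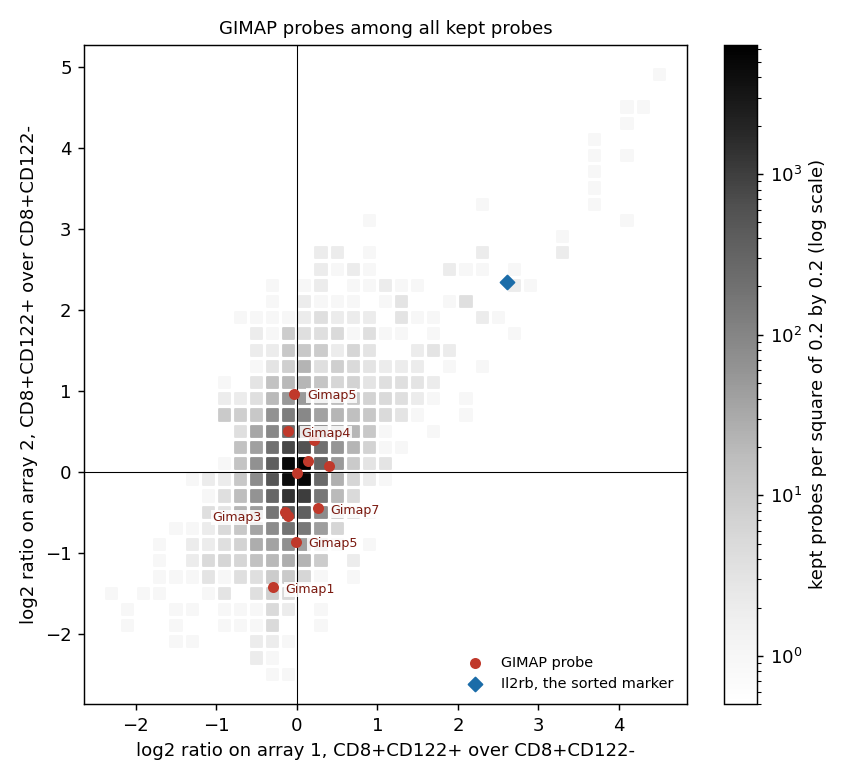
Log2 ratio on array 1 (x axis) and array 2 (y axis), CD8+CD122+ over CD8+CD122-, with grey squares for the number of kept probes in bins of 0.2 by 0.2, red points for the 11 GIMAP probes and a blue diamond for Il2rb. GIMAP points spread along array 2, from -1.43 to 0.96, more than along array 1, from -0.30 to 0.40, and Il2rb lies apart at 2.60 and 2.34.

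Ratios were wider on array 2 for all probes, with a standard deviation of 0.32 against 0.21 on array 1, and 1.8% of probes were at least 2-fold apart on array 2 against 0.49% on array 1. Over all non-control spots the scanner software's own ratios of Cy5 over Cy3 had a correlation of -0.20 between the dye-swapped arrays. The summed signals of 8 B cell markers, cells that also express GIMAP genes, were 1124 and 1272 in CD8+CD122+ cells, against 1144 and 1389.8 in CD8+CD122- cells. Of these, 8 of 8 were well above background in CD8+CD122+ cells on both arrays, against 7 and 8 in CD8+CD122- cells. Among them the B cell gene Cd79b had log2 ratios of -0.20 and -0.76, lower on both arrays and more so on array 2, as Gimap1 and Gimap3 were. Over the 8 B cell markers 4 were positive and 2 negative on both arrays, with a median of 0.038. The 4 NK cell markers summed to 777 and 859.8 in CD8+CD122+ cells, against 750.5 and 830.2 in CD8+CD122- cells, and the 6 myeloid markers to 856 and 1215 in CD8+CD122+ cells, against 755 and 1116 in CD8+CD122- cells. The myeloid gene Lyz2 had log2 ratios of 0.77 and 0.33, while the median over the 5 tested myeloid markers was 0.078. Of these 5, 4 were positive and 0 negative on both arrays. The B cell, NK cell and myeloid sums include the offset of 50 for each gene, so near-equal sums do not measure the content of such cells. In CD8+CD122+ cells on array 1 the B cell genes Pax5 and Blnk had signals of 63 and 70, close to the offset, while Cd79b had 291. Fcer1g alone had 496 of the NK cell sum of 777 there. The part of B cells, NK cells and myeloid cells in the GIMAP values was not tested. The 7 T cell and CD8 genes summed to 50928 and 47678 in CD8+CD122+ cells, against 59424 and 74727 in CD8+CD122- cells, and all 7 were well above background in both. Of these 7 genes 0 were positive and 5 negative on both arrays, with a median of -0.50. Cd8b1 alone had 19178 and 23645 in CD8+CD122+ cells, against 26748 and 42933 in CD8+CD122- cells, and so made up most of the gap between the sums. Its log2 ratios were -0.48 and -0.86, and those of Cd8a -0.31 and -0.91. Those of Cd3g were -0.39 and -0.60, of Cd247 -0.41 and -0.66, and of Cd3d -0.0035 and -0.26. Those of Cd3e were -0.056 and 0.026, and of Thy1 0.041 and -0.27. The part of these genes' shift in the GIMAP values was not tested.

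Other genes of the pathways that GIMAP proteins are tied to were read from 1 probe a gene, the brightest, over 21959 genes. Of these 0% were called by limma (smallest adjusted p 0.151, with 1404 genes at an unadjusted p under 0.05), 0.31% were 2-fold higher and 0.105% 2-fold lower on both arrays, 29.2% were positive on both and 24.1% negative on both, and the median was 0.0070. Among 16 BCL-2 family and interleukin 7 survival genes limma called 0 and 5 had an unadjusted p under 0.05, 1 was 2-fold higher and 0 lower, 8 were positive and 3 negative on both arrays, and the median was 0.071. Bbc3, the gene of the death-promoting protein PUMA, was the 2-fold higher one, with log2 ratios of 1.30 and 2.02 (adjusted limma p 0.581). Pmaip1, which encodes the death promoter NOXA, had 0.72 and 1.26, and the survival gene Bcl2 had 1.15 and 0.35. Stat5b, a signal carrier of interleukin 7, had -0.22 and -0.79.

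The ATG8 family of autophagy genes holds the partner of Gimap6. Of its 5 members 0 were called by limma and 0 were 2-fold apart on both arrays. On both arrays 2 were positive and 0 negative, and the median was 0.083. Gabarapl1 was past 2-fold on array 2 only, with log2 ratios of -0.13 and 1.71. Gabarapl2 itself had log2 ratios of 0.60 and 0.15 (adjusted limma p 0.859), and Gabarap 0.032 and 0.0027. Among 12 naive T cell genes 0 were called and 0 were 2-fold apart on both arrays, 0 were positive and 5 negative on both, and the median was -0.15. Dapl1 had -1.26 and -0.98, the transcription factor gene Lef1 -1.06 and -0.71, Bach2, a repressor of effector genes, -0.64 and -0.29, and Ets1, an ETS factor gene, -0.17 and -0.20.

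Interferon-inducible GTPases, another class of immune GTPases, had a median of -0.54 over 11 genes. limma called 0 and 6 had an unadjusted p under 0.05, 0 were 2-fold apart on both arrays, and 1 was positive and 8 were negative on both. Tgtp1 had a mean log2 ratio of -1.47 ± 0.67, Igtp -1.12 ± 0.41, Irgm2 -1.12 ± 1.24 and Irgm1 -0.67 ± 0.38 (SD, n = 2 arrays), all of them genes whose products act against intracellular pathogens. Tgtp1 has a near-identical copy, so its share in the signal is uncertain. No difference between these lists and the GIMAP probes was tested.

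**Figure D4:**
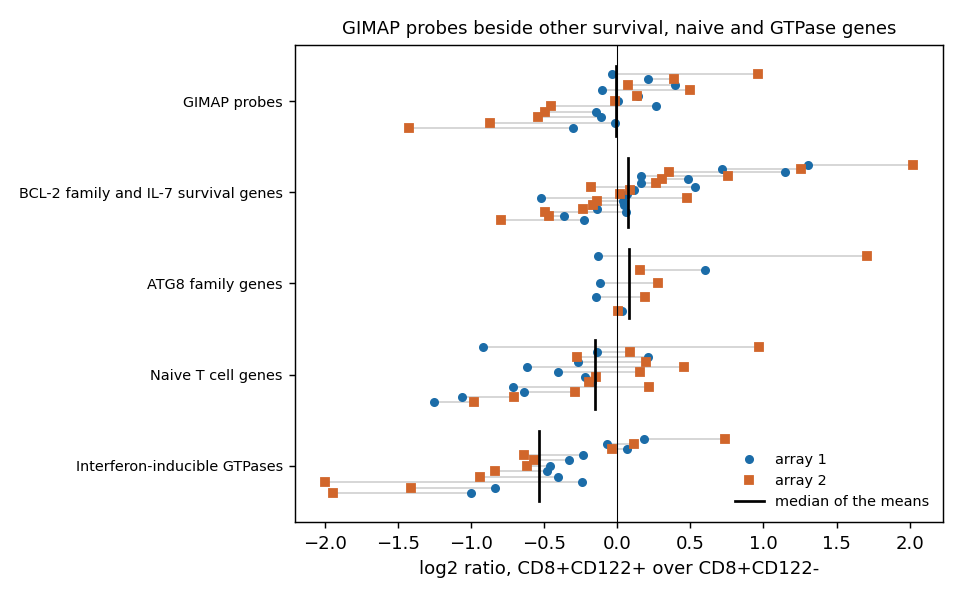
Log2 ratio of CD8+CD122+ over CD8+CD122- (x axis) for the 11 GIMAP probes and the genes of 4 lists (rows), with circles for array 1, squares for array 2, a grey line joining the arrays and a black line at the median of the means. The GIMAP median lies at -0.0050 between members on either side, and the interferon-inducible GTPases have their median at -0.54.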

How the data were processed

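RNA of both populations was read on each of 2 Agilent arrays with exchanged dyes. Per the labels and file headers the authors quantified them with Agilent Feature Extraction, in an older version for array 1. Deposited scanner files give mean spot and median local background intensity on a linear scale, processed signals (background-subtracted and dye-normalised, per the file headers), a log10 ratio of Cy5 over Cy3 with its error, and flags. The deposited value table of the series holds log10 ratios equal to the scanner's, with the sign turned on array 1; so its ratios have CD8+CD122- on top, opposite to the direction used here. Its column medians are 0, and any centring by the authors is unknown.

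Each array holds 43790 spots, 2256 of them controls. Of the others, the share well above background was 76.4% for CD8+CD122+ and 69.5% for CD8+CD122- cells on array 1. The shares were 80.2% for CD8+CD122+ and 83.4% for CD8+CD122- cells on array 2. Intensities were corrected by normexp with an offset of 50 and normalised by loess within each array with controls at weight 0 (limma 3.58.1, R 4.3.3). Outlier spots were left out and spots of a probe averaged. A probe was kept if 1 population was well above background on both arrays, which left 30794 probes. limma (lmFit and eBayes with 1 residual degree of freedom, testing both directions, Benjamini-Hochberg over all kept probes) was called at an adjusted p under 0.05, and the steps were tested on simulated data. Alternatives covered background, scaling, filters, the test, the unit and each array alone.

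The GIMAP members, the lists and the tests were chosen with earlier results of these data known. Named genes were all GIMAP probes, Il2rb, and up to 4 members of each list by size among those with one sign on both arrays. Single cell type markers and Gabarapl1 were named after their values were seen. Names came from the scanner files and RefSeq of GRCm38.p6, which named 32016 of 41174 probes. No source used here names the build of the probe positions in the scanner file, so none is printed.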

Additional observations from a re-analysis of the deposited data

How the results depend on the processing

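In each alternative with a limma test, 0 GIMAP probes and 0 probes in all were called, the adjusted p of GIMAP probes was at least 0.754, and 0 GIMAP probes were 2-fold apart on both arrays. The count of all probes 2-fold apart, 103, was 255 with an offset of 0, 169 with plain subtraction, and 284 with processed signals or the value table. The GIMAP median, -0.0050, was 0.0043, 0.0015 and -0.016 in those settings, 0.14 with the brightest probe of each gene, 0.011 with the mean of its probes, and, added after seeing the data, -0.050 without the Gimap4 probe placed on chromosome 1 and -0.21 with RefSeq accessions alone. The EST probe of Gimap7 turned from -0.0050 to 0.0043 with an offset of 0 and to 0.0015 with subtraction; the other 10 probes kept the sign of their mean in both, with processed signals and with median centring. The value table repeats the processed signals, and the filters, the flags and the forms of eBayes leave GIMAP ratios as they were, so these say nothing of stability. Median centring took the share of all probes of one sign on both arrays to 30.7% from 53.4%. It took the GIMAP probes lower on both to 0. With loess and 1 value per gene, by the brightest probe or the mean, 2 GIMAP genes were lower on both arrays. With 1 array alone, all probes past 2-fold numbered 151 to 555 and GIMAP probes 0 to 1, the GIMAP probes above 0 numbered 5 on either array, and the median was -0.015 to -0.014. The Gimap7 probes gave -0.45 to 0.26 and -0.014 to 0.0039, the second Gimap5 probe -0.034 to 0.96 and the Gimap4 probe placed on chromosome 1 -0.11 to 0.50. The causes were not tested. The ratio within each array already pairs the populations. No further paired analysis was possible because another term would leave no residual degree of freedom.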
